A study of Drosophila melanogaster with 4 samples.

Results

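At 24 h after larval hatching (ALH), neural stem cells (NSCs) of the *Drosophila* brain that carried transcripts of *snail* (*sna*) were set against NSCs of the same libraries in which no *sna* transcript was counted. A cell entered the comparison as an NSC if it had 200 to 6000 genes, at most 5% mitochondrial counts, at least 2 UMIs of *dpn*, at least 1 UMI of *wor* and no UMI of *nSyb*, a synaptic vesicle gene of mature neurons. A UMI (unique molecular identifier) marks 1 RNA molecule caught in a droplet, and counts are therefore numbers of molecules. The groups were chosen by the *sna* count of each cell. A *sna*-expressing NSC held at least 1 *sna* UMI per 10000 UMIs of the cell, and a *sna*-negative NSC held none. There were 117 *sna*-expressing NSCs, 63 in the first library and 54 in the second, and 131 *sna*-negative NSCs, 75 and 56. Together these 248 cells were part of 612 NSCs that met the conditions, of 1938 cells kept and of 2105 cells called at 24 h ALH. The other 364 NSCs held *sna* below the limit and are called intermediate.

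Brains at 24 h ALH were dissected and dissociated. Cells positive for membrane-bound GFP (*wor*-GAL4>UAS-mCD8-GFP) were isolated by flow cytometry for 10x Chromium sequencing in 2 biological replicates. The paper treats this time as reactivated, but it also shows NSCs of the abdominal nerve cord that were still quiescent at 24 h ALH. Whether quiescent NSCs were among the cells compared here was not tested. The study also covered quiescent NSCs of stage 17 embryos and asked how NSCs differ between quiescence and reactivation. Both groups of NSCs share genotype, stage, sort and library, and were told apart by their *sna* count alone. GFP is inherited by the progeny of NSCs, so the sort also held neurons and glia, and each library pools brains, so that cells cannot be traced to an animal.

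Snail, Worniu and Escargot are zinc finger proteins of the Snail family, which bind E-box sequences and mostly act as repressors. In the embryonic nervous system the family acts redundantly in neuroblasts, the fly's NSCs, where it is needed for asymmetric division and for expression of the cell-cycle phosphatase gene *string*. At the end of embryogenesis most NSCs stop dividing, and feeding later starts insulin and TOR signalling that brings them back into the cell cycle.

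The *sna* level chose the groups and is a description only. The *sna*-expressing NSCs held 576 and 375 *sna* UMIs in the first and second library, or 164 and 166 counts per 1000000 UMIs of the summed cells (CPM), against 0 and 0 in *sna*-negative NSCs. Pairs of values below stand in the same order, first library and then second library. Intermediate NSCs were at 35.2 and 35.8 CPM. Within the *sna*-expressing group the level per cell ran from 1.02 to 4.93 per 10000 UMIs with a median of 1.48 in the first library, and from 1.03 to 5.90 with a median of 1.59 in the second. Just outside the limit, the highest intermediate cells were at 0.9996 and 0.988 per 10000. Of the *sna*-expressing NSCs, 5 of 63 and 7 of 54 lay under 1.1 per 10000, and 9 of 223 and 10 of 141 intermediate cells lay at 0.9 or more, so the groups are ranges of a continuous level. A *sna* UMI was found in 79.2% and 77.7% of all NSCs, at median depths of 71744 and 63113 UMIs per cell. In cells with *nSyb* and without *dpn*, which should lack *sna*, the share was 12.8% and 8.31% at median depths of 17109 and 10947, and the *sna* level of their sums was 17.9 and 12.5 CPM, against 45.6 and 46.3 CPM in all NSCs.

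The groups differed in depth. By construction, a limit per 10000 UMIs is met by few molecules in a shallow cell, and a count of 0 is also more often seen there. The *sna*-expressing NSCs had 13485 to 180025 UMIs per cell with a median of 55653 in the first library, against 12869 to 186542 with a median of 70323 in *sna*-negative NSCs. In the second library the *sna*-expressing NSCs had 4653 to 118769 with a median of 36652.5, against 7277 to 123878 with a median of 68760.5 in *sna*-negative NSCs. The ranges overlapped throughout, but the *sna*-expressing cells were shallower at the median, and 47 of 75 and 43 of 56 *sna*-negative cells were deeper than the median *sna*-expressing cell. Intermediate cells, with medians of 79383 and 65407, were deeper than *sna*-expressing ones in both libraries. The sums compared below rest on 3503404 and 2254545 UMIs in *sna*-expressing NSCs, against 5173635 and 3653745 in *sna*-negative NSCs.

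**Figure D1:**
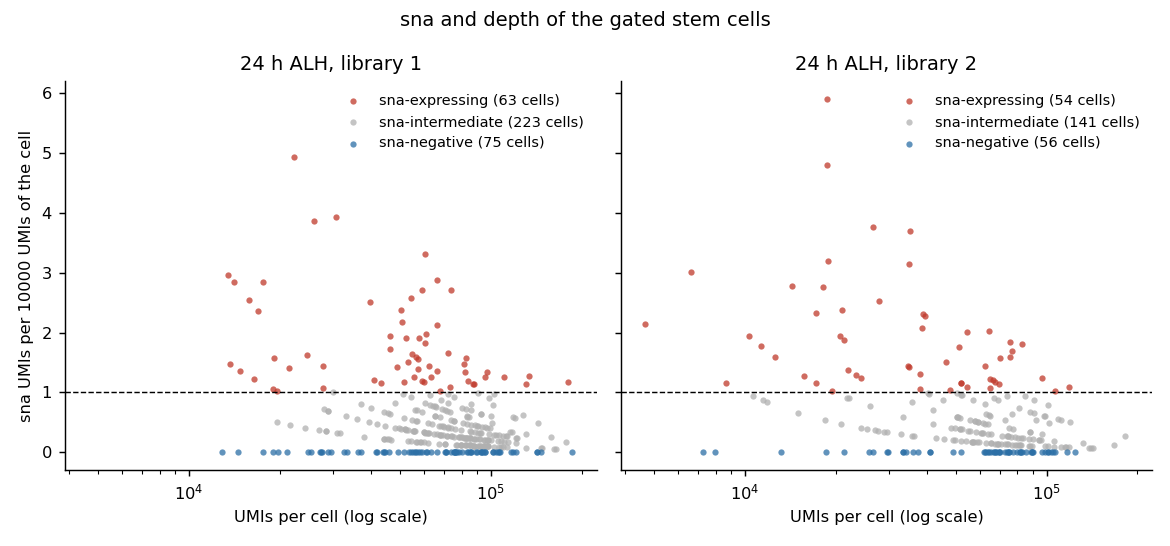
*sna* UMIs per 10000 UMIs of a cell (vertical axis) against the total UMIs of the cell (horizontal axis, log scale) in the 2 libraries at 24 h ALH, 1 point per NSC, coloured by group. The *sna*-expressing cells lie above the dashed line at 1 per 10000, with medians of 55653 and 36652.5 UMIs, and the *sna*-negative cells lie at 0, with medians of 70323 and 68760.5 UMIs.

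Both groups were chosen by *dpn* and *wor*, so the stem cell label was fixed by the rule. Of 14 NSC identity genes, 11 were tested besides the genes of the rule, and 1 was higher and 1 lower in *sna*-expressing NSCs. Their median log2 fold change was 0.05, beside 0.01 over all genes tested. An unadjusted p under 0.05 by edgeR was found for 6 of the 11, beside 1253 of all 6388 genes tested, and DESeq2 called 2. *sc* was at a log2 fold change of 3.92 on 12 and 10 UMIs, against 1 and 1 (adjusted p = 0.0501). *D* was at -0.52 (adjusted p = 0.0687), and neither passed the test. *asense* (*ase*), a proneural gene of type I NSCs, was at 111 and 129 CPM in *sna*-expressing NSCs, against 122 and 113 CPM in *sna*-negative NSCs, and the groups overlapped. *klumpfuss* (*klu*), a zinc finger factor of NSC self-renewal, was at 568 and 538 CPM, against 506 and 480 CPM, and did not pass the test. *miranda* (*mira*), the adaptor that carries fate determinants into the daughter cell, was at 383 and 266 CPM, against 394 and 351 CPM, and did not pass it either. *deadpan* (*dpn*), used in the rule, was at 181 and 173 CPM, against 158 and 160 CPM.

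Of 6388 genes tested with the library as pair in edgeR's quasi-likelihood test, 258 differed at a Benjamini-Hochberg adjusted p under 0.05, which is 4.04%. In *sna*-expressing NSCs 159 of them were higher, 2.49% of the genes tested, and 99 were lower, 1.55%. All 258 differed in the same direction in both libraries, and 246 had no overlap between the groups, where 48.5% of all genes tested had none. Intermediate NSCs lay between both groups in both libraries for 197 of the 258, 118 higher and 79 lower, against 27.5% of all genes tested. With 2 libraries the fit has 1 residual degree of freedom and borrows most of its estimate of the spread from other genes (median prior degrees of freedom 6.63).

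Depth moved with these differences. Among intermediate NSCs alone, split within each library at the median depth, 1387 of 6684 genes differed between deeper and shallower cells, which is 20.8%. Every intermediate cell holds *sna*, and *sna* itself was lower in the deeper cells (log2 fold change of deeper over shallower -0.70). The split thus moves *sna* and depth together and cannot show what depth alone does. Of the 159 higher genes, 157 were tested there and 152 were also higher in shallower cells, and 97 of the 99 lower genes were also lower in shallower cells. The share of all genes tested that moved the same way in both contrasts was not counted, so these counts stand without a background. When each *sna*-expressing cell was matched to a *sna*-negative cell of its library within a depth ratio of 5 to 4, 53 and 36 pairs remained, at median depths of 57608 and 51596.5 UMIs in *sna*-expressing NSCs, against 57218 and 57106.5 in *sna*-negative NSCs. In these cells 257 of 6189 genes were called, which is 4.15%, and 176 of them had been called in all cells. All 257 of the called genes that could be tested kept their direction, and the median ratio of the matched to the full log2 fold change was 0.83. The pairs hold 53 of the 63 and 36 of the 54 *sna*-expressing NSCs in which the genes were called, so this agreement is no independent test. Cells thinned to 5000 UMIs each gave 114 called genes of 3187, or 3.58%. Of 212 genes called in all cells that could be tested after thinning, 134 were not called there and 5 had the opposite sign. There were 55 genes called in all cells, in matched pairs and after thinning, 35 higher and 20 lower. The matching within a ratio of 5 to 4 and the depth split were both chosen after the data were seen. How much of a difference goes with *sna* and how much with depth cannot be told apart where cells are not matched. Where a gene named below lost its call in matched pairs, its log2 fold change there is given. After thinning, 36 of the 56 named called genes that could be tested were called, and only some of the others are marked below.

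**Figure D2:**
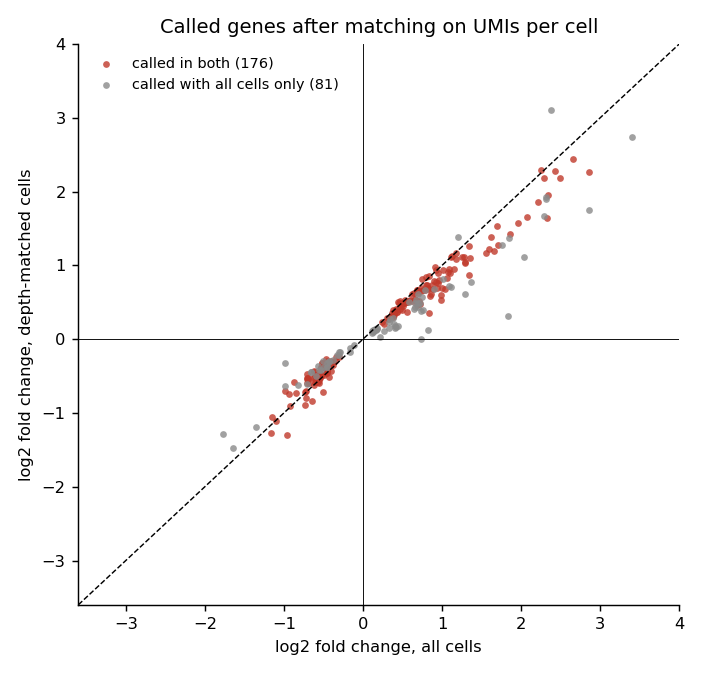
Log2 fold change (*sna*-expressing over *sna*-negative NSCs) in pairs of cells matched within a ratio of 5 to 4 in total UMIs (vertical axis) against that in all cells (horizontal axis), 1 point per gene called in all cells and tested in both, and the dashed line marks equal values. All 257 points lie in the quadrants of the same sign, and 176 of them were also called in the matched pairs (red). The pairs are part of the cells in which the genes were called, so equal signs are no independent test.

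*escargot* (*esg*), the third Snail family gene of the cluster, rose with *sna*. *esg*, known in other fly tissues for keeping progenitors undifferentiated, was at 33.4 and 41.7 CPM in *sna*-expressing NSCs, against 7.54 and 7.39 CPM in *sna*-negative NSCs, with intermediate NSCs at 13.9 and 17.6 CPM. The 3 classes did not overlap, and the log2 fold change of *sna*-expressing over *sna*-negative NSCs was 2.33 ± 0.19 (SE, adjusted p = 0.00129), or 1.65 in matched pairs (adjusted p = 0.000114). An *esg* UMI was seen in 19.0% (95% exact interval 10.2 to 30.9) and 24.5% (13.8 to 38.3) of *sna*-expressing NSCs thinned to 5000 UMIs, against 4.0% and 8.93% of *sna*-negative NSCs. The share in cells with *nSyb* and without *dpn* was 7.31% and 5.94%, and the *sna*-negative share lay below it in the first library and above it in the second, within the counting error that such intervals cover. *worniu* (*wor*), required by the rule at 1 UMI only, was at 218 and 268 CPM in *sna*-expressing NSCs, against 131 and 111 CPM in *sna*-negative NSCs. That difference is given with no test, and *wor* was above the *sna*-negative level in each library. *scratch* (*scrt*), a more distant relative that is expressed in neurons, was at 29.1 and 25.3 CPM, against 16.2 and 19.98 CPM, and did not pass the test (adjusted p = 0.11).

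The family lies together on chromosome arm 2L. In BDGP6.54, which shares the dm6 coordinates of the labels, *esg* spans 15333866 to 15336138 on the plus strand, *wor* spans 15423297 to 15425580 on the minus strand and *sna* spans 15476593 to 15478260 on the minus strand. From *wor* to *sna* there are 51.0 kb, and the stretch from *esg* to *sna* covers 144 kb with 6 protein-coding genes. The other 3 (CG15258, CG44869 and CG4161) had too few counts to be tested.

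Besides these genes, the largest rises that the naming rule selects included genes spread over many cells and genes held by few. *DOR*, a coactivator of the ecdysone receptor with a role in autophagy, was at 75.1 and 69.2 CPM in *sna*-expressing NSCs, against 14.3 and 12.9 CPM in *sna*-negative NSCs. Its log2 fold change of 2.43 ± 0.13 (SE, adjusted p = 0.000323) was 2.27 in matched pairs, and no single *sna*-expressing cell held more than 15.4% of its UMIs in either library. *fok* was at 143 and 177 CPM, against 34.6 and 28.5 CPM, a log2 fold change of 2.34 ± 0.15 (SE, adjusted p = 0.000387). *CG5953* was at 47.1 and 45.7 CPM, against 10.4 and 9.85 CPM (2.21 ± 0.16 on the log2 scale), and *CG1572* was at 52.2 and 55.0 CPM, against 16.0 and 9.03 CPM (2.08 ± 0.21). All of these were called in matched pairs and after thinning as well. *mulet* (*mlt*), which encodes a tubulin-binding protein and overlaps *KCNQ* on the same strand, was at 53.9 and 53.2 CPM, against 18.2 and 9.03 CPM (1.96 ± 0.22). *Atf3*, a bZIP transcription factor of stress and metabolic responses, was at 42.2 and 24.4 CPM, against 10.1 and 11.2 CPM (1.71 ± 0.24). *cv-c* was at 46.2 and 59.0 CPM, against 17.0 and 17.2 CPM (1.62 ± 0.15), and *CG32365* was at 34.0 and 38.6 CPM, against 12.6 and 11.5 CPM (1.60 ± 0.17). In each of them both *sna*-expressing sums lay above both *sna*-negative sums. After thinning *mlt* was called, *cv-c* was not (0.99, adjusted p = 0.385), and *Atf3* and *CG32365* were not tested. In cells of at least 40000 UMIs *mlt* was not called (1.78, adjusted p = 0.0855).

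Several of these genes were also frequent in neurons of the same libraries. After thinning, a *DOR* UMI was seen in 20.6% and 28.3% of *sna*-expressing NSCs, against 8.0% and 1.79% of *sna*-negative NSCs, and in 61.6% and 65.1% of cells with *nSyb* and without *dpn*. A *fok* UMI was seen in 31.7% and 39.6%, against 17.3% and 12.5%, and in 48.4% and 46.0% of cells with *nSyb* and without *dpn*. Of the neuron markers, 6 were tested, 1 was higher and none was lower, with a median log2 fold change of 0.02. The higher one was *elav*, which encodes an RNA-binding protein of neurons, at 117 and 263 CPM in *sna*-expressing NSCs, against 74.8 and 138 CPM in *sna*-negative NSCs, and it was not called in matched pairs (log2 fold change 0.12, adjusted p = 0.948). Summed over the list, neuron markers made up 3.81 and 6.06 UMIs per 10000 in *sna*-expressing NSCs, against 3.63 and 4.24 in *sna*-negative NSCs. The part of neuronal RNA in the rises of *DOR* and *fok* was not tested.

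**Figure D3:**
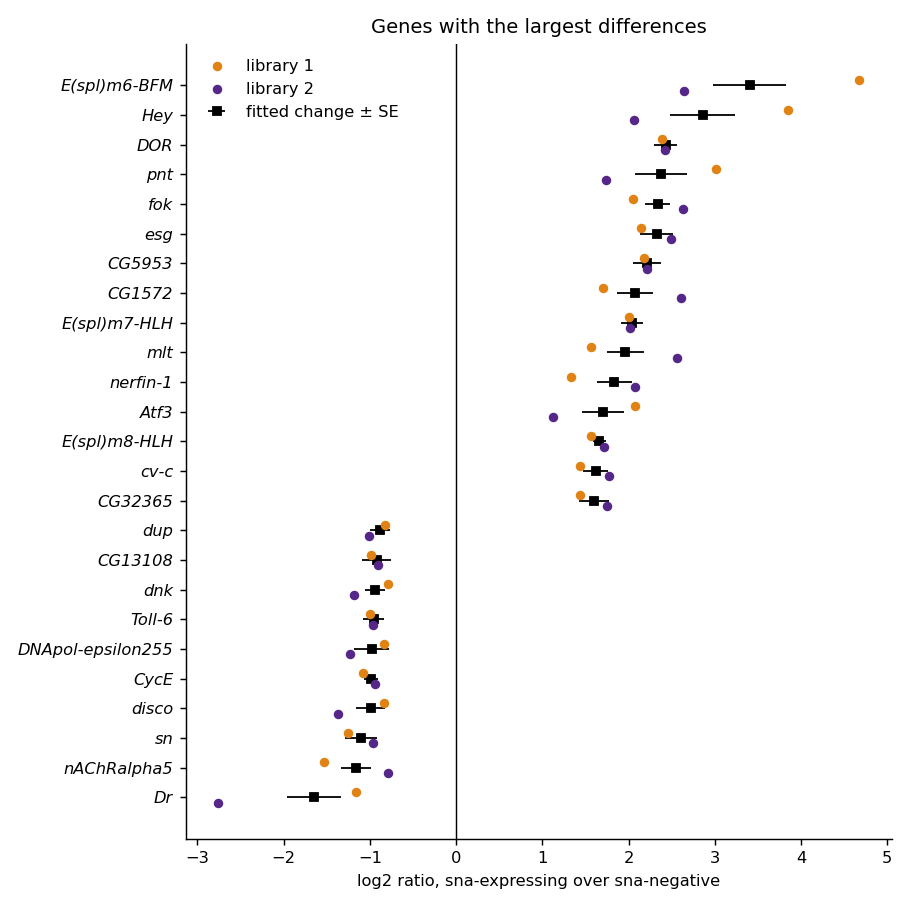
Log2 ratios of *sna*-expressing over *sna*-negative NSCs (horizontal axis) for the 15 genes with the largest rises and the 10 with the largest falls under the naming rule, with the fitted change and its SE (squares and bars) and the ratio in each library (circles). The libraries lie close for *DOR*, fitted at 2.43 ± 0.13, and apart for *Hey*, fitted at 2.86 ± 0.38. Every gene lies on the same side of 0 in both libraries because the naming rule required it.

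Genes of insulin and TOR signalling rose in part. Of 14 tested, 5 were higher and none was lower, and their median log2 fold change was 0.32. In matched pairs 3 of them were called. *InR*, the insulin receptor, was at 377 and 441 CPM in *sna*-expressing NSCs, against 188 and 184 CPM in *sna*-negative NSCs, with intermediate NSCs at 219 and 226 CPM. The difference between *sna*-expressing and *sna*-negative NSCs was 1.16 ± 0.08 on the log2 scale (SE, adjusted p = 0.000932) and 0.95 in matched pairs. *Myc*, a driver of cell growth, was at 755 and 664 CPM, against 538 and 506 CPM (0.47 ± 0.06, adjusted p = 0.00766). *Pdk1*, the kinase that activates Akt, was at 63.1 and 96.7 CPM, against 45.8 and 50.4 CPM (0.72 ± 0.14, adjusted p = 0.032). *foxo*, the transcription factor that insulin signalling keeps out of the nucleus, was at 75.1 and 64.8 CPM, against 49.5 and 41.9 CPM (0.64 ± 0.11, adjusted p = 0.0221), and *S6k*, the kinase downstream of TOR, was at 189 and 193 CPM, against 147 and 152 CPM (0.38 ± 0.08, adjusted p = 0.0437). The last pair were not called in matched pairs (log2 fold change 0.41 for *foxo* and 0.29 for *S6k*, adjusted p = 0.0793 and 0.0909). After thinning *InR* and *Myc* were called, and *Pdk1* and *foxo* were not (0.53 and 0.34, adjusted p = 0.545 and 0.779). *Akt1* and *Tor* did not pass the test, at log2 fold changes of 0.04 and -0.22.

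Values of further genes that restrain TOR complex 1 or are held off by it follow, and they were chosen after their values were seen. Of these, *Sesn* had 1 and 1 UMIs in *sna*-expressing NSCs, against 1 and 0 in *sna*-negative NSCs, and was not tested. *scylla* (*scyl*) and *charybdis* (*chrb*) encode related inhibitors of TOR complex 1. *scyl* was at 914 and 1262 CPM in *sna*-expressing NSCs, against 567 and 631 CPM in *sna*-negative NSCs (log2 fold change 0.87 ± 0.07, adjusted p = 0.00135). *chrb* was at 589 and 841 CPM, against 361 and 380 CPM (0.95 ± 0.10, adjusted p = 0.00368). *REPTOR* encodes a transcription factor that TOR complex 1 keeps in the cytoplasm, and *REPTOR-BP* its binding partner. *REPTOR* was at 257 and 266 CPM, against 151 and 132 CPM (0.91 ± 0.09, adjusted p = 0.00247), and *REPTOR-BP* was at 185 and 192 CPM, against 129 and 120 CPM (0.62 ± 0.09, adjusted p = 0.0096). All 4 were called in matched pairs and after thinning. *Thor*, the translation repressor 4E-BP, was at 494 and 471 CPM, against 113 and 183 CPM, a log2 fold change of 1.78 ± 0.23 that missed the threshold (adjusted p = 0.0631). It was at 1.5 in matched pairs and was not called there either (adjusted p = 0.471), and it was called after thinning (1.56, adjusted p = 1.32e-11) and in cells of at least 40000 UMIs (1.84, adjusted p = 3.88e-07). The groups did not overlap for *scyl*, *chrb*, *REPTOR*, *REPTOR-BP* or *Thor*. *headcase* (*hdc*), which acts with Unkempt in the TOR pathway and is counted here among progenitor markers, was at 1654 and 1775 CPM, against 974 and 964 CPM (0.85 ± 0.04, adjusted p = 0.000303).

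A pair of cell-cycle inhibitors rose and S phase genes fell. In the cell-cycle arrest list 2 of 7 genes were higher and none was lower by edgeR, and DESeq2 called none of the 7. *dacapo* (*dap*), the fly's inhibitor of Cyclin E-Cdk2, was at 29.4 and 48.3 CPM in *sna*-expressing NSCs, against 19.3 and 17.2 CPM in *sna*-negative NSCs (log2 fold change 1.04 ± 0.22, adjusted p = 0.0417). *tribbles* (*trbl*), which promotes the breakdown of the String phosphatase and is known to hold quiescent NSCs in G2, was at 24.5 and 25.3 CPM, against 13.7 and 12.04 CPM (0.96 ± 0.19, adjusted p = 0.0323). Both were called in matched pairs, and *dap* was not called without cells with a *nerfin-1*, *Hey* or *tap* UMI (1.21, adjusted p = 0.103). *string* (*stg*) itself did not pass the test, at a log2 fold change of -0.39 (adjusted p = 0.299), and was called lower after thinning (-0.96, adjusted p = 0.0133).

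Of 20 DNA replication genes tested, 12 were lower, none was higher and none had a positive log2 fold change, with a median of -0.54. In matched pairs 11 were lower, with a median of -0.44. DESeq2 called 3 of the 20, and 18 of the 20 had an unadjusted p under 0.05 by edgeR. *CycE*, the cyclin of S phase entry, was at 142 and 126 CPM in *sna*-expressing NSCs, against 301 and 240 CPM in *sna*-negative NSCs, with intermediate NSCs at 265 and 279 CPM. The difference between *sna*-expressing and *sna*-negative NSCs was -0.99 ± 0.08 on the log2 scale (SE, adjusted p = 0.00129) and -0.71 in matched pairs. A *CycE* UMI was seen in 38.1% and 26.4% of *sna*-expressing NSCs thinned to 5000 UMIs, against 56.0% and 58.9% of *sna*-negative NSCs, and in 5.94% and 2.72% of cells with *nSyb* and without *dpn*. *double parked* (*dup*), the fly Cdt1 that licenses origins, was at 48.8 and 38.1 CPM, against 86.6 and 76.9 CPM (-0.88 ± 0.12, adjusted p = 0.00798). *RnrL*, the large subunit of ribonucleotide reductase, was at 88.2 and 65.6 CPM, against 136 and 119 CPM (-0.70 ± 0.10, adjusted p = 0.012). *dpa*, which encodes Mcm4 of the replicative helicase, had a log2 fold change of -0.71 (adjusted p = 0.0368). After thinning *CycE* and *dup* were called, and *RnrL* and *dpa* were not (-0.59 and -0.67, adjusted p = 0.377 and 0.416). Among genes looked up afterwards, *PCNA*, the sliding clamp, was at 521 and 441 CPM, against 686 and 667 CPM (-0.47 ± 0.07, adjusted p = 0.0132). *dUTPase*, which removes dUTP from the nucleotide pool, was at 836 and 734 CPM, against 1152 and 1148 CPM (-0.52 ± 0.06, adjusted p = 0.00368). In each of these genes with CPM values both *sna*-expressing sums lay below both *sna*-negative sums.

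**Figure D4:**
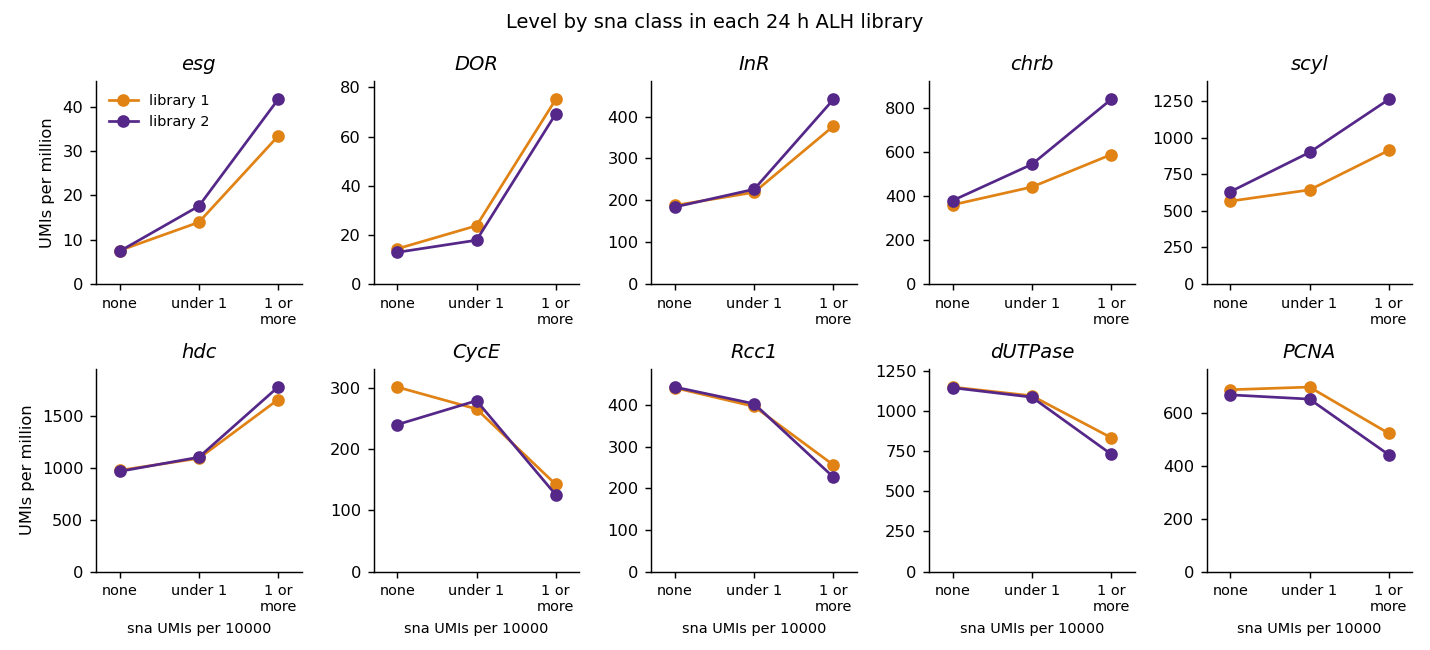
CPM of selected genes (vertical axis of each panel) in NSCs with no *sna*, with *sna* under 1 and with *sna* of 1 or more per 10000 UMIs, from left to right, 1 line per library at 24 h ALH. *esg*, *DOR* and *InR* were highest and *CycE* lowest in the *sna*-expressing class, and *CycE* in the second library was higher in intermediate than in *sna*-negative NSCs, 279 against 240 CPM.

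Mitosis genes moved the same way with fewer calls. Of 22 tested, 4 were lower, none was higher and none had a positive log2 fold change, with a median of -0.37. DESeq2 called none of the 22, and 16 had an unadjusted p under 0.05 by edgeR. *CycA*, the cyclin needed for entry into mitosis, was at 104 and 91.4 CPM in *sna*-expressing NSCs, against 154 and 152 CPM in *sna*-negative NSCs (log2 fold change -0.62 ± 0.09, adjusted p = 0.0129). *fzy*, the activator of the anaphase-promoting complex, was at 61.1 and 50.6 CPM, against 88.7 and 79.6 CPM (-0.56 ± 0.11, adjusted p = 0.0332). *aurB*, the Aurora B kinase, was at 98.8 and 81.6 CPM, against 132 and 121 CPM (-0.46 ± 0.09, adjusted p = 0.0426), and *pav*, a kinesin of cytokinesis, was at 76.8 and 86.0 CPM, against 113 and 113 CPM (-0.45 ± 0.10, adjusted p = 0.0477). *aurB* was not called in matched pairs (-0.38, adjusted p = 0.053). After thinning *fzy* was called. *CycA*, *aurB* and *pav* were not called there (-0.39, -0.74 and -0.54, adjusted p = 0.582, 0.13 and 0.452). *Rcc1*, the chromatin-bound exchange factor of the Ran GTPase, was looked up afterwards and was at 256 and 227 CPM, against 442 and 444 CPM (-0.84 ± 0.08, adjusted p = 0.00208). *CycB3* was at 73.9 and 45.7 CPM, against 109 and 114 CPM, and did not pass the test (adjusted p = 0.061). CPM compare a gene with all RNA of the same sum, so a lower share and fewer molecules per cell cannot be told apart here.

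The other large falls were of genes outside the lists of cell-cycle genes. *nAChRalpha5*, a subunit of nicotinic acetylcholine receptors that overlaps *NimC4* on the same strand, was at 34.8 and 48.8 CPM in *sna*-expressing NSCs, against 101 and 84.6 CPM in *sna*-negative NSCs (log2 fold change -1.16 ± 0.17, adjusted p = 0.0122). It was detected in 25.4% and 35.2% of *sna*-expressing NSCs, against 65.3% and 51.8% of the deeper *sna*-negative NSCs. *singed* (*sn*), the actin-bundling protein Fascin, was at 12.8 and 11.5 CPM, against 30.5 and 22.4 CPM (-1.10 ± 0.19). *dnk*, a deoxyribonucleoside kinase of nucleotide salvage, was at 77.6 and 69.6 CPM, against 134 and 158 CPM (-0.94 ± 0.12). *Toll-6*, a receptor of the Toll family, was at 31.97 and 35.5 CPM, against 64.0 and 69.2 CPM (-0.96 ± 0.12), and *CG13108* was at 14.8 and 13.8 CPM, against 29.4 and 25.7 CPM (-0.92 ± 0.17). These 5 were called in matched pairs. After thinning only *dnk* was called (-1.26, adjusted p = 0.00206), and *sn* was not tested. *Toll-6* was at 0.26 there (adjusted p = 0.839), *nAChRalpha5* at -0.97 (adjusted p = 0.135) and *CG13108* at -2.68 (adjusted p = 0.0504). In cells of at least 40000 UMIs, *Toll-6* alone of the 5 was not called (-1.54, adjusted p = 0.1). *disco*, a zinc finger transcription factor, and *DNApol-epsilon255*, the catalytic subunit of DNA polymerase epsilon, had log2 fold changes of -0.99 and -0.98 and were not called in matched pairs (-0.32 and -0.64, adjusted p = 0.575 and 0.143). *Dr*, the homeobox gene of the dorsal column of the neuroectoderm, was at 12.8 and 4.44 CPM, against 28.8 and 30.1 CPM (-1.65 ± 0.32, adjusted p = 0.0393), and was at -1.48 in matched pairs (adjusted p = 0.349).

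Targets of Notch rose, and those that could also be tested without the cells that held progenitor UMIs were not called higher there. Notch signalling keeps NSCs in self-renewal, and the E(spl) complex holds its best-known target genes. Of 15 genes of the Notch pathway and the E(spl) complex tested, 7 were higher and none was lower, and their median log2 fold change was 1.28. In matched pairs 3 of 14 were called, and in cells of at least 40000 UMIs the median was 0.52. *E(spl)m8-HLH* was at 330 and 526 CPM in *sna*-expressing NSCs, against 112 and 161 CPM in *sna*-negative NSCs (1.66 ± 0.08, adjusted p = 0.000291). *E(spl)mgamma-HLH*, the member most typical of NSCs, was at 412 and 602 CPM, against 184 and 237 CPM (1.28 ± 0.08, adjusted p = 0.000382). *E(spl)mbeta-HLH* was at 131 and 241 CPM, against 52.8 and 72.3 CPM (1.55 ± 0.12, adjusted p = 0.00098). These were the 3 called in matched pairs. In cells of at least 40000 UMIs *E(spl)m8-HLH* was at 1.37 and *E(spl)mgamma-HLH* at 1.04, and neither was called (adjusted p = 0.523 and 0.402). The receptor gene *N* was at 332 and 375 CPM, against 386 and 385 CPM, and the ligand gene *Dl* at 273 and 335 CPM, against 255 and 302 CPM, and neither passed the test.

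Other rises, in the Notch list and among progenitor genes, were not called in matched pairs. *Hey*, a Notch target of newborn neurons, was at 22.3 and 21.7 CPM in *sna*-expressing NSCs, against 1.55 and 5.2 CPM in *sna*-negative NSCs (log2 fold change 2.86 ± 0.38, adjusted p = 0.00798), and 1 cell held 67.9% of its UMIs in the first library. *E(spl)m6-BFM* was at 44.5 and 58.1 CPM, against 1.74 and 9.31 CPM (3.40 ± 0.42, adjusted p = 0.0283), and 1 cell held 73.7% of them in the first library. *E(spl)m7-HLH* was at 54.5 and 117 CPM, against 13.5 and 28.7 CPM (2.04 ± 0.12, adjusted p = 0.000382). In matched pairs *Hey* was at 1.75 (adjusted p = 0.607), *E(spl)m6-BFM* at 2.74 (adjusted p = 0.616) and *E(spl)m7-HLH* at 1.11 (adjusted p = 0.527). *nerfin-1*, a zinc finger gene of new neurons and their precursors, was at 16.6 and 81.6 CPM, against 6.57 and 19.4 CPM (1.84 ± 0.20, adjusted p = 0.00368), and was at 0.31 in matched pairs (adjusted p = 0.637). *insb*, a neuronal precursor gene, was at 85.6 and 183 CPM, against 64.9 and 90.9 CPM, and was at 0.01 in matched pairs (adjusted p = 0.989).

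Markers of ganglion mother cell-like progenitors, the daughters of NSCs, thus moved with the groups. Of 7 tested, 5 were higher and 1 was lower, and 2 higher and 1 lower were called in matched pairs. Summed, they made up 19.6 and 23.1 UMIs per 10000 in *sna*-expressing NSCs, against 13.4 and 13.6 in *sna*-negative NSCs, of which *hdc* was the main part. A UMI of *nerfin-1*, *Hey* or *tap* was seen in 27 of 63 and 28 of 54 *sna*-expressing NSCs (42.9% and 51.9%), against 31 of 75 and 25 of 56 *sna*-negative NSCs (41.3% and 44.6%). With these cells left out, an alternative chosen after the data were seen, 36 and 26 *sna*-expressing and 44 and 31 *sna*-negative NSCs remained. Then none of 10 Notch list genes tested was higher and 1 was lower, beside 388 higher and 308 lower of all 5967 genes tested. Of the 7 Notch list genes higher in all cells, 5 could be tested, while *E(spl)m6-BFM* and *Hey*, itself used to leave cells out, were not tested. The lower one was *E(spl)malpha-BFM*, named after its value was seen, at a log2 fold change of -3.58 (adjusted p = 0.00592), beside 1.28 in all cells. *E(spl)m8-HLH* was at 1.26 and *E(spl)mgamma-HLH* at 0.82, and neither was called (adjusted p = 0.242 and 0.327). The lower progenitor gene was *prospero* (*pros*), which encodes the factor that ends self-renewal in the daughter cell, at 138 and 170 CPM in *sna*-expressing NSCs, against 266 and 253 CPM in *sna*-negative NSCs (-0.74 ± 0.10, adjusted p = 0.00945).

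Log2 fold changes of called genes outside the Notch list were mostly larger without the cells with progenitor UMIs. The remaining cells were not matched on depth. Their medians were 52275 and 42465 UMIs in *sna*-expressing NSCs, against 74584 and 74191 in *sna*-negative NSCs, and the part of depth in the larger changes was not tested. *esg* was at a log2 fold change of 2.68, *DOR* at 3.08, *fok* at 2.53, *InR* at 1.36, *CycE* at -1.38 and *pros* at -0.86 there, all called. The DNA replication list had 12 lower genes of the 20 and a median of -0.51, beside -0.54 in all cells. The mitosis list had 10 lower genes of 22 and a median of -0.40, beside -0.37 in all cells. Lower calls were also more frequent over all genes tested, 308 of 5967 here, against 99 of 6388 in all cells. *Thor* was at 2.17 and was called there (adjusted p = 1.24e-07). Over the 254 called genes that could be tested, the median ratio to the full log2 fold change was 1.27, and 1 had the opposite sign.

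**Figure D5:**
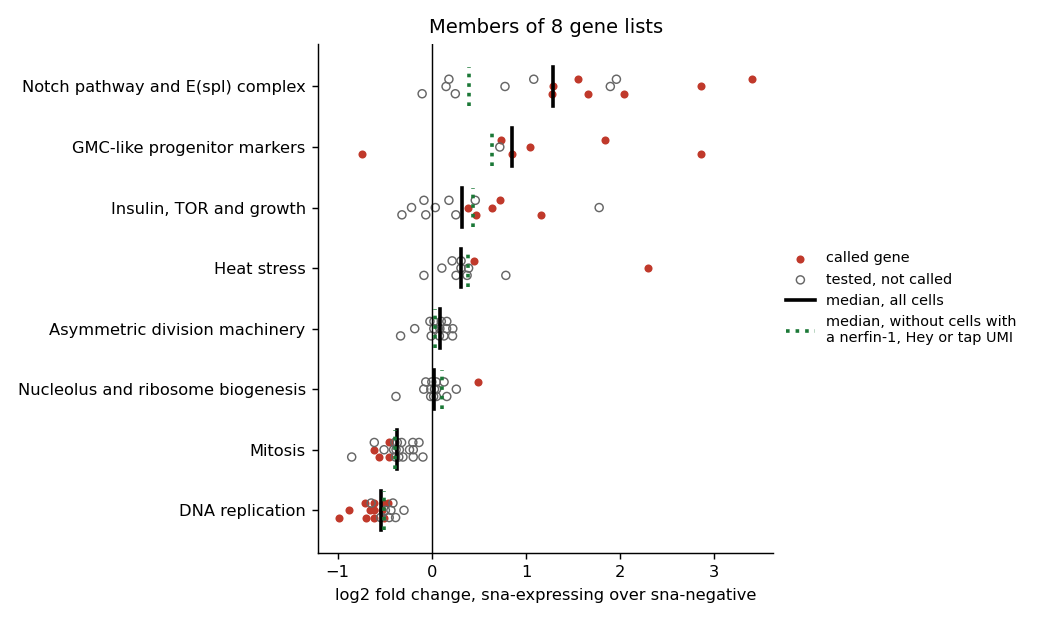
Log2 fold change of *sna*-expressing over *sna*-negative NSCs (horizontal axis) for each tested member of 8 gene lists, filled where called, with the list's median in all cells (solid bar) and without cells with a *nerfin-1*, *Hey* or *tap* UMI (dotted bar). The DNA replication median is -0.54 in all cells and -0.51 without those cells, and the Notch median is 1.28 and 0.39.

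Genes of NSC timing and position differed in few members. Of 12 temporal identity factors tested, 4 were higher and none was lower, with a median log2 fold change of 0.16. *svp*, which encodes an orphan nuclear receptor that switches NSCs to later fates, was at 420 and 397 CPM in *sna*-expressing NSCs, against 208 and 155 CPM in *sna*-negative NSCs (1.20 ± 0.09, adjusted p = 0.00112). It was at 1.39 in matched pairs but not called (adjusted p = 0.616), and at -0.17 in cells with at least 2 *sna* UMIs per 10000. *chinmo*, a factor of young NSCs and early-born neurons, was at 1160 and 1081 CPM, against 883 and 854 CPM (0.39 ± 0.05, adjusted p = 0.00509). *lin-28*, an RNA-binding protein of growth and developmental timing, was at 103 and 143 CPM, against 68.0 and 65.1 CPM (0.88 ± 0.13, adjusted p = 0.0134). After thinning *lin-28* was not called (0.81, adjusted p = 0.159). *Kr*, an early embryonic temporal factor, was at 5.71 and 8.87 CPM, against 0.966 and 1.64 CPM (2.49 ± 0.49, adjusted p = 0.0367). Few cells held *Kr*, 2 of 63 and 3 of 54 *sna*-expressing NSCs, with 80% and 75% of the UMIs in 1 cell, against 5 of 75 and 2 of 56 *sna*-negative NSCs. In matched pairs 3 of the 12 were higher and 3 were lower. *cas*, which acts late in the embryonic series, was at 221 and 156 CPM, against 446 and 176 CPM, and *Syp*, an RNA-binding protein of older NSCs, was at 25.4 and 71.9 CPM, against 54.1 and 89.5 CPM. Neither passed the test in all cells (adjusted p = 0.307 and 0.0981), and both were lower in matched pairs (-0.97 for *cas* and -1.0 for *Syp*, adjusted p = 2.79e-06 and 0.00028). *Imp*, an RNA-binding protein of young NSCs, was at 12192 and 11445 CPM, against 12997 and 16611 CPM, and did not pass the test in all cells (-0.29, adjusted p = 0.603), and it was lower in matched pairs (-0.26, adjusted p = 0.0182).

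Of 5 Hox and trunk genes tested, *homothorax* (*hth*), a Hox cofactor, was higher, at 837 and 1061 CPM in *sna*-expressing NSCs, against 519 and 553 CPM in *sna*-negative NSCs (log2 fold change 0.84 ± 0.07, adjusted p = 0.00129). It was at 0.35 in matched pairs (adjusted p = 0.0408), and was not called in cells of at least 40000 UMIs (0.37, adjusted p = 0.722) or without the cells with progenitor UMIs (0.76, adjusted p = 0.548). *SoxN*, a Sox-family factor of neural progenitors, was the higher NSC identity gene, at 571 and 663 CPM, against 426 and 368 CPM (0.66 ± 0.10, adjusted p = 0.013). *pointed* (*pnt*), an ETS factor that marks the type II lineages, was the 1 of 7 type II genes called, at 65.4 and 62.1 CPM, against 8.12 and 18.6 CPM (2.38 ± 0.30, adjusted p = 0.0239). It was held by few cells, since 50.7% of its UMIs in *sna*-expressing NSCs of the first library lay in 1 cell, and it was not called in matched pairs (3.11, adjusted p = 0.149). With at least 2 *sna* UMIs per 10000 it was lower, at -2.79 (adjusted p = 0.0134). In all cells, no gene of the lists of asymmetric division (14 tested), ecdysone response (12), brain and mushroom body patterning (11), aldehyde and redox metabolism (12) or mesodermal Sna targets (5) was called by edgeR or DESeq2. At an unadjusted p under 0.05 by edgeR, the counts in these lists were 1, 4, 3, 2 and 2. In matched pairs 1 ecdysone response gene and 1 aldehyde and redox gene were higher, and 1 mesodermal Sna target was lower. Over all genes tested in matched pairs, 140 of 6189 were higher and 117 lower. Without the cells with progenitor UMIs, 388 of all 5967 genes tested were higher and 308 lower. In that setting 1 gene each of asymmetric division, ecdysone response and aldehyde and redox metabolism was higher, of 14, 10 and 12 tested. Of the mesodermal Sna targets, 1 was higher and 1 lower there.

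The 3 genes named with *sna* for this comparison did not pass the test. *E23*, an ABCG transporter gene induced by ecdysone, was at 141 and 146 CPM in *sna*-expressing NSCs, against 135 and 111 CPM in *sna*-negative NSCs (log2 fold change 0.25 ± 0.10, adjusted p = 0.245). *Aldh*, a mitochondrial aldehyde dehydrogenase, was at 1186 and 1034 CPM, against 1151 and 1062 CPM (0.03 ± 0.05, adjusted p = 0.759), and the groups overlapped. *CG4250* was at 370 and 360 CPM, against 290 and 152 CPM (0.79 ± 0.28, adjusted p = 0.307), and its *sna*-negative sums differed by more than its *sna*-expressing sums. In cells thinned to 5000 UMIs *CG4250* was called, at 0.79 (adjusted p = 0.00104), and in matched pairs it was not (0.76, adjusted p = 0.508).

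Markers of muscle, trachea and haemocytes were rarer than those of glia. Muscle markers held 311 and 135 UMIs in *sna*-expressing NSCs, against 64 and 87 UMIs in *sna*-negative NSCs, and 1 cell held 82.6% of those in the *sna*-expressing NSCs of the first library. All 6 tested had a positive log2 fold change, with a median of 2.05, and 5 had an unadjusted p under 0.05 by edgeR. Only *Act57B*, a muscle actin, was called, at 12.6 and 8.87 CPM, against 3.67 and 2.74 CPM (log2 fold change 1.76 ± 0.33, adjusted p = 0.0298), and it was not called in matched pairs (1.27, adjusted p = 0.15). In *sna*-expressing NSCs 1 cell held 77.3% of its UMIs in the first library and 1 held 50% in the second. An *Act57B* UMI was seen in 15.9% and 18.5% of *sna*-expressing NSCs, against 25.3% and 17.9% of *sna*-negative NSCs. Glia markers made up 3.92 and 3.78 UMIs per 10000, against 3.86 and 3.65, with none of 3 tested called. Trachea markers made up 0.0143 and 0.0310 UMIs per 10000, against 0.0213 and 0.0274, and haemocyte markers 0.0200 and 0.0222, against 0.0174 and 0.0356, with no gene of either list tested. Mitochondrial genes held 1.96% and 1.79% of UMIs in *sna*-expressing NSCs, against 2.02% and 1.87% in *sna*-negative NSCs, and ribosomal RNA genes 2.28% and 1.91%, against 1.92% and 1.55%. The part of these RNAs in the differences was not tested. No cell of either group was called a doublet, and the 2 libraries shared no barcode.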

How the data were processed

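The deposited counts are UMIs of 14240 genes in each called cell, which the authors made with Cell Ranger (version 3 and dm6 per the labels), with no normalization. The 24 h ALH libraries held 53458971 and 33037729 UMIs. Raw counts were summed per library and group, so CPM are counts per 1000000 UMIs of a sum. The sums were tested in R 4.3.3 with edgeR 4.0.16 (TMM, filterByExpr, robust quasi-likelihood test, Benjamini-Hochberg adjustment over all genes except *sna*, *dpn*, *wor* and *nSyb*), with the library as a block because both groups came from the same library (correlation of their deviations over 6391 genes 0.166). The SE is the log2 fold change over the square root of F. DESeq2 1.42.0 was an alternative. Fits were tested on simulated data. Thinning drew 5000 UMIs per cell with a fixed seed in Python 3.11.15 with numpy 2.4.6, and exact intervals cover counting error only. Scrublet in scanpy 1.11.5 called 7 doublets in each library (0.706% and 0.629%). Members, lists and tests were chosen with earlier results of these data known. Named genes were the Snail family, *E23*, *Aldh*, *CG4250*, NSC identity genes and up to 4 called genes per list. The 15 largest rises and 10 largest falls were also named, among called genes whose higher group averaged 20 CPM or more. Their CPM had to differ in the same direction in both libraries, which all 258 called genes did. Overlapping genes on one strand may share reads. Stage 17 libraries were used only for values given side by side.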

Additional observations from a re-analysis of the deposited data

Results flagged for a closer look

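The stage 17 libraries were not part of the comparison. The conditions that select NSCs at 24 h ALH were met there by 11 cells of the first library and 2 of the second, with 56282 and 23500 UMIs in all. Their summed *sna* level was 1812 and 1319 CPM, above the 164 and 166 CPM of *sna*-expressing NSCs at 24 h ALH. Of these cells, 10 of the 11 and both of the 2 reached 1 *sna* UMI per 10000. In a cell of fewer than 10000 UMIs, 1 *sna* UMI already meets that limit. The 10 are all cells of the first library with any *sna* UMI. The stages differ in depth per cell (median 4745 and 11750 UMIs in these stage 17 cells) and in part in chemistry, so no test was made. Side by side with the genes above, *esg* was at 373 and 170 CPM, *Thor* at 2541 and 3319 CPM, *chrb* at 2843 and 5532 CPM and *hdc* at 3198 and 10128 CPM in the stage 17 cells. *CycE* was at 355 and 0 CPM, on 20 and 0 UMIs.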

How the results depend on the processing

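The count of 258 called genes kept within 1.5 times under upper-quartile scaling, both matchings, at least 2 *sna* UMIs per 10000, no condition on *nSyb* and *dpn* of at least 1 UMI. Removal of doublets could not change it, since no cell of either group was called a doublet. The matching with no limit on the depth ratio kept 63 and 54 pairs and left a difference in depth. Its sums held 3503404 and 2254545 UMIs in *sna*-expressing NSCs, against 3849448 and 3424971 in *sna*-negative NSCs. It was 78 with DESeq2 (73 of them among the 258), 706 with no filter on low counts, 84 with no replicate block, 114 with thinned cells, 49 with any *sna* UMI against none, 391 with no maximum of 6000 genes, 601 in cells of at least 40000 UMIs and 696 without cells with progenitor UMIs. The last pair were chosen after the data were seen, and why these counts moved was not tested. A library left out leaves no residual degree of freedom, so only values were computed, and no named gene that was called changed sign in either library. Of the 68 named genes called, 42 were called with DESeq2, 38 with no replicate block, 36 of 56 after thinning, 20 with any *sna* UMI and 52 in pairs matched within a ratio of 5 to 4. Signs turned for *Aldh* (-0.045 thinned, -0.35 at 2 *sna* UMIs per 10000, -0.0883 with no condition on *nSyb*), *E23* (-0.20 thinned, -0.17 at 2 *sna* UMIs), *Toll-6* (0.26 thinned), *ase* (-0.065 with any *sna*, -0.10 matched within a ratio of 5 to 4, -0.0655 in deep cells), *grh* (0.0179 matched), *insc* (-0.54 thinned, -0.0144 with any *sna*, -0.11 matched, -0.0166 in deep cells), *mira* (0.0437 matched), *nab* (0.0029 with any *sna*, 0.0694 in deep cells, 0.15 without progenitor UMIs), *pnt* (-2.79 at 2 *sna* UMIs) and *svp* (-0.17 at 2 *sna* UMIs). The limit of 2 *sna* UMIs left 17 and 18 *sna*-expressing cells.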

Other observations

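Energy metabolism and stress genes differed in few members. Of 12 glycolysis genes tested, 1 was higher and 2 were lower in *sna*-expressing NSCs, with a median log2 fold change of -0.18. *Ald*, the glycolytic aldolase, was at 203 and 194 CPM in *sna*-expressing NSCs, against 112 and 119 CPM in *sna*-negative NSCs (0.81 ± 0.09, adjusted p = 0.00368). *Gapdh2*, a glyceraldehyde-3-phosphate dehydrogenase, was at 626 and 535 CPM, against 842 and 861 CPM (-0.53 ± 0.07, adjusted p = 0.00931). *Pglym78*, a phosphoglycerate mutase, was at 255 and 259 CPM, against 363 and 375 CPM (-0.49 ± 0.07, adjusted p = 0.011). *Cyt-c-p*, the somatic cytochrome c, was the 1 of 14 respiratory chain genes called, at 546 and 490 CPM, against 667 and 735 CPM (-0.41 ± 0.08, adjusted p = 0.0367). All 4 were called in matched pairs. After thinning *Gapdh2* and *Pglym78* were called, and *Ald* (0.59, adjusted p = 0.235) and *Cyt-c-p* (-0.49, adjusted p = 0.0501) were not.

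Of 11 heat stress genes tested, 2 were higher, with a median log2 fold change of 0.31. *starvin* (*stv*), a BAG-family co-chaperone, was at 12.3 and 19.5 CPM in *sna*-expressing NSCs, against 3.87 and 2.19 CPM in *sna*-negative NSCs (2.29 ± 0.38, adjusted p = 0.0179). *Hsp68* was at 491 and 521 CPM, against 400 and 356 CPM (0.45 ± 0.08, adjusted p = 0.0246), and was not called in matched pairs (0.17, adjusted p = 0.215). *puckered* (*puc*), a phosphatase induced by JNK signalling, was the 1 of 3 immediate early genes called, at 58.2 and 55.0 CPM, against 35.2 and 35.6 CPM (0.71 ± 0.12, adjusted p = 0.021). *Atet* was the 1 of 7 ABCG transporters called, at 58.2 and 54.1 CPM, against 26.3 and 20.3 CPM (1.29 ± 0.14, adjusted p = 0.00368). *Non1*, a nucleolar GTPase gene, was the 1 of 15 nucleolar and ribosome biogenesis genes called, at 541 and 459 CPM, against 391.8 and 335 CPM (0.49 ± 0.07, adjusted p = 0.00931), and the median of that list was 0.03.

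Of 15 columnar and segment-polarity genes tested, *Dr* was lower and *slp2*, a forkhead factor of segment polarity and NSC timing, was higher. *slp2* was at 59.1 and 34.2 CPM in *sna*-expressing NSCs, against 39.0 and 18.3 CPM in *sna*-negative NSCs (0.73 ± 0.14, adjusted p = 0.0304), so the groups overlapped between libraries though not within one, and it was not called in matched pairs (0.39, adjusted p = 0.224). Genes of receptor tyrosine kinase signalling were looked up afterwards. *sprouty* (*sty*), an inhibitor of that signalling, was at 229 and 262 CPM, against 135 and 152 CPM (0.80 ± 0.08, adjusted p = 0.00247), and was not called after thinning (0.36, adjusted p = 0.501). *kek1*, an inhibitor of the EGF receptor, was at 62.5 and 60.8 CPM, against 41.8 and 32.8 CPM (0.74 ± 0.13, adjusted p = 0.0221), and was not called in matched pairs (0.57, adjusted p = 0.205). *Egfr* and *aos*, a secreted inhibitor of the EGF receptor, did not pass the test, at log2 fold changes of 0.21 and -0.07 (adjusted p = 0.45 and 0.912).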
